A study of Danio rerio with 12 samples.

Results

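Fast signalling between neurons depends on vesicles that are filled with transmitter, docked at the nerve terminal and fused with its membrane when calcium enters. The SNARE proteins pull vesicle and membrane together, synaptotagmins sense the calcium, and scaffold proteins of the active zone hold vesicles beside the calcium channels. In a larva of 5 days these genes serve the brain, spinal cord, retina and motor nerve endings, and some also serve endocrine cells. The genes described here were chosen by name. They are synaptotagmins (syt), synapsins (syn1 to syn3), SV2 proteins, SNAREs (snap25, stx1, vamp1 and vamp2), syntaxin-binding proteins (stxbp), complexins (cplx), the Rab3 group, unc13, rims, synaptophysins (sypa, sypb) and the transporters that fill vesicles (slc17a6 to slc17a8, slc32a1, slc18a). Of 26873 genes named in the files, 104 carried such a name, and 103 of them reached 10 normalised counts in 3 or more of the 12 libraries. The gene left out, cplx4b, did not exceed 2 in any library, while stx1a, the member nearest the limit, held 3 to 14 and reached 10 in exactly 3 libraries. Because the rule reads only the start of a name, 30 of the 103 were classed as wider traffic genes. They include stx11b.1, stx12 and rab32b of general membrane traffic, and rab3gap1, which acts on Rab3. The other 73, called the synaptic members, are kept apart from them throughout. A further 11 genes with upper-case names, UNC13A among them, reached the same level but did not match the rule, and they are not counted.

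Messenger RNA was measured in whole wild-type zebrafish larvae that swam in perfluorooctanesulfonate (PFOS), a persistent fluorinated surfactant, from 2 to 5 days post fertilization. The groups were a control, 0.03 ppm, 0.3 ppm and 1 ppm PFOS, with 3 libraries each and 12 in all. Every group, the control too, received 0.2% DMSO as solvent, and all larvae were 5 days old when frozen. Each library pooled 10 whole larvae, so no tissue was separated and single larvae cannot be seen. The labels do not say whether the 3 libraries of a group came from separate clutches or tanks, so p-values measure the spread between these libraries, which may be partly technical. Values are the authors' normalised counts, rounded to whole numbers and summing to 24061372 to 31907243 per library. They are not divided by gene length, so levels of different genes are not ranked against each other. Member means over the 12 libraries ran between 7.58 and 3182 normalised counts with a median of 249. In 17 members the mean was under 50, and 99 members held at least 10 in every library.

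No vesicle or release gene passed the test at any dose. In limma, with p-values adjusted by Benjamini-Hochberg over 22320 genes, 0 of 103 members had an adjusted p under 0.05 at 1 ppm against the control, where 0.139% of all genes did. The count was also 0 of 103 at 0.3 ppm, against 0.130% of all genes, and 0 of 103 at 0.03 ppm, against 0.0582%. At an unadjusted p under 0.05 there were 0 members at 1 ppm beside 4.74% of all genes, 0 at 0.3 ppm beside 2.82%, and 1 at 0.03 ppm beside 3.49%. That gene was rims2b, an active-zone scaffold, which was lower. Asking whether the 3 doses jointly differed from the control gave 0 called members (0.0941% of all genes) and 0 at an unadjusted p under 0.05 (2.34%). A slope over the 4 groups in dose order gave 0 called members (0.0134%) and 4 at an unadjusted p under 0.05 (5.56%). None of these counts was above the background share. With the replicate number as a block in the fit, limma called 58 of all genes at 1 ppm, 43 at 0.3 ppm and 20 at 0.03 ppm, where it called 31, 29 and 13 without the block, and 0 members either way. The width of the intervals sets what could be seen. The median 95% interval of a synaptic member at 1 ppm reached 0.76 to either side of its log2 fold change, a fold of 1.70. Smaller changes could not be told from 0 in many of them even before adjustment. An adjusted p under 0.05 over 22320 genes needs a larger change, so a fold of 1.70 is not the detection limit of the adjusted test. Over all genes tested the median interval at 1 ppm reached 0.52 to either side, a fold of 1.44. The synaptic members were thus tested with wider intervals, and their lower counts do not show a smaller response.

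The values varied between libraries. The median SD of a synaptic member over the 12 libraries was 0.44 on the log2 scale, beside 0.23 for the wider traffic genes and 0.30 for all genes tested. This SD holds differences between groups as well as those within them. Such a spread was not particular to the synaptic members. Lists of marker genes gave 0.54 for neurons in general, 0.45 for glia, 0.44 for epidermis and 0.67 for lens. Photoreceptor and skeletal-muscle genes gave 0.36 and 0.31. Control replicate 1 held the highest of the 12 values in 50 of the 73 synaptic members, or 68.5%, whereas it did so in 18.1% of all genes and in 5 of the 30 wider traffic genes. At the other end, replicate 2 of the 0.03 ppm group was lowest of 12 in 30 synaptic members and control replicate 2 in 18. Replicate 2 was the lowest of its group in 62 synaptic members in the control, 53 at 0.03 ppm, 37 at 0.3 ppm and 58 at 1 ppm. It was lowest in at least 3 of the 4 groups for 51 of 73 synaptic members, or 69.9%, beside 23.1% of all genes. The same held for 11 of the 30 wider traffic genes, or 36.7%, so some of them shared the pattern.

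**Figure D1:**
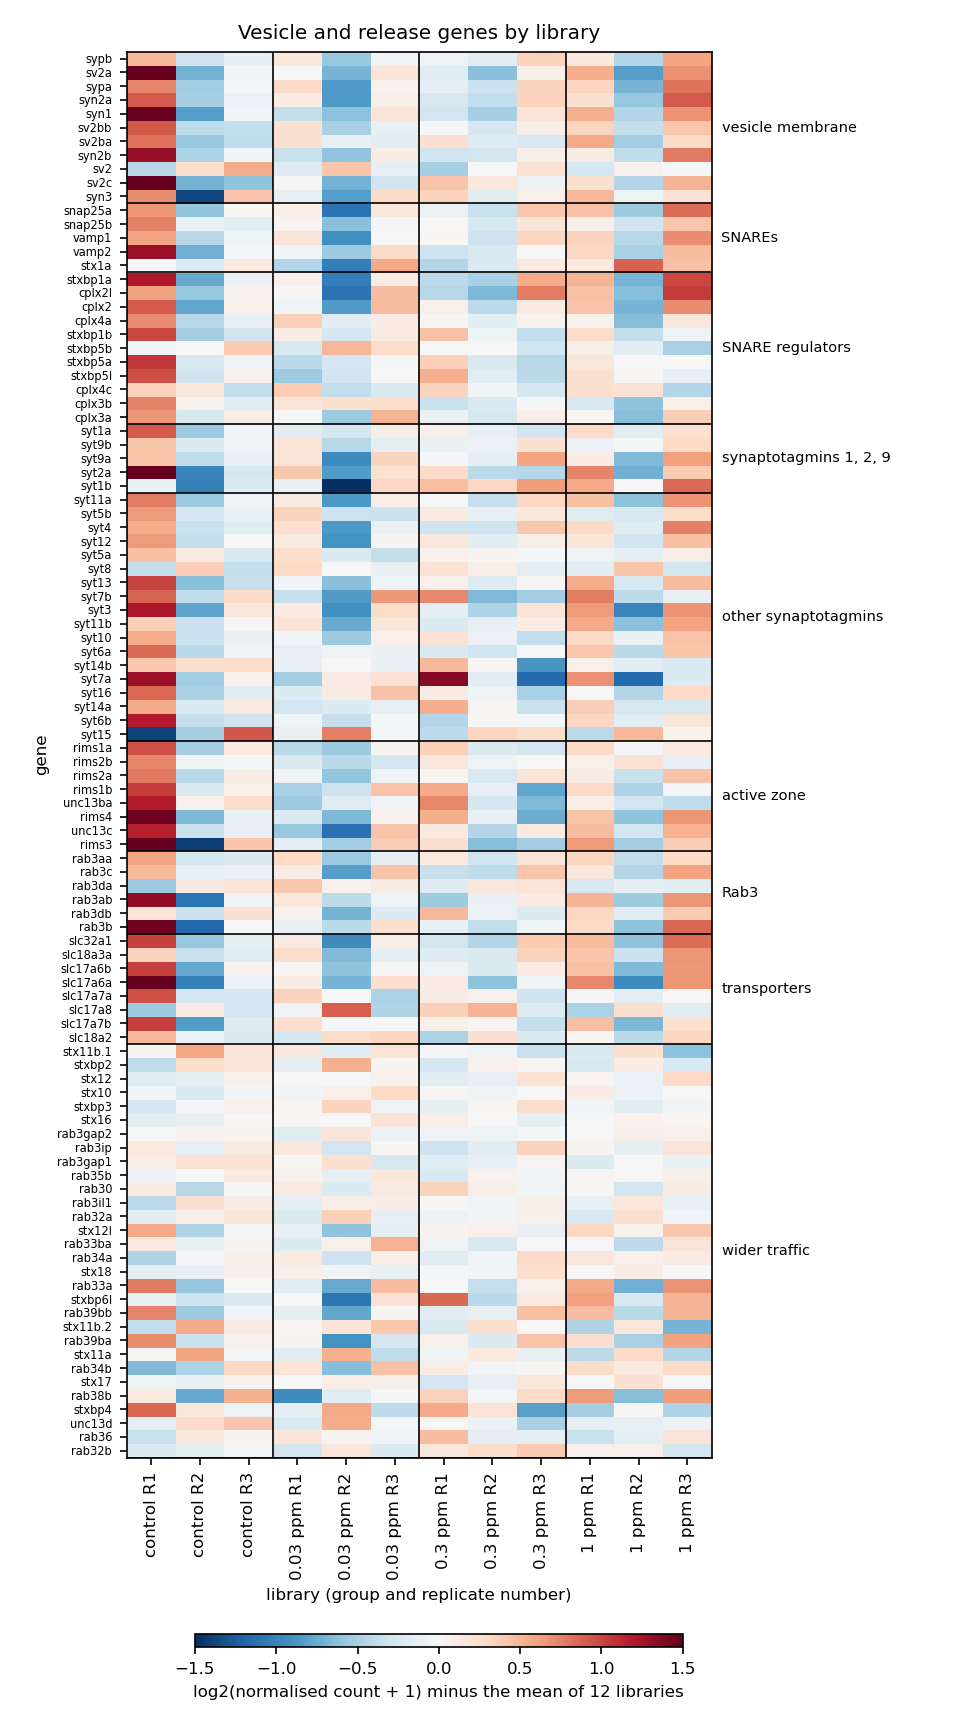
Each row is a gene and each column a library, in dose order, with R1 to R3 the replicate numbers. Colour gives log2(normalised count + 1) minus the gene's mean over the 12 libraries, within groups of role separated by black lines. The column of control replicate 1 is mostly red and the replicate 2 columns mostly blue through the synaptic roles. Among the 30 wider traffic genes at the bottom only some share this.

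The mean log2(normalised count + 1) of the 73 synaptic members was 8.39, 7.20 and 7.60 in control replicates 1, 2 and 3. It was 7.62, 7.16 and 7.72 at 0.03 ppm, 7.69, 7.45 and 7.62 at 0.3 ppm, and 7.90, 7.29 and 7.99 at 1 ppm. Control replicate 1 stood above every other library, and replicate 2 was the low library of each group. Genes that mark neurons in general were also high in control replicate 1 and low in replicate 2. For 37 pan-neuronal genes the mean was 10.08, 8.64 and 9.07 in the control, 9.21, 8.44 and 9.25 at 0.03 ppm, 9.06, 8.82 and 9.39 at 0.3 ppm, and 9.56, 8.77 and 9.76 at 1 ppm. The 18 epidermis genes, with keratins and claudins among them, ran the other way. Their mean was 14.17, 15.09 and 14.49 in the control, 14.62, 15.13 and 14.41 at 0.03 ppm, 14.58, 14.96 and 14.50 at 0.3 ppm, and 14.16, 15.15 and 14.21 at 1 ppm, highest in replicate 2 of each group. The 30 wider traffic genes stayed between 7.73 and 7.89. Some counts are also given with the libraries levelled on the pan-neuronal genes, for which each library's log2 values were shifted until the mean of those genes was equal in all libraries. This shift moved the medians of all genes tested to 0.28 at 0.03 ppm, 0.17 at 0.3 ppm and -0.11 at 1 ppm on the log2 scale. With it limma called 1 of all genes at 1 ppm, 1 at 0.3 ppm and 0 at 0.03 ppm. Without the shift it called 31, 29 and 13. In RNA from whole larvae, fewer neurons and less of these transcripts per neuron cannot be told apart. The part of tissue share or handling in the differences between libraries was not tested.

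**Figure D2:**
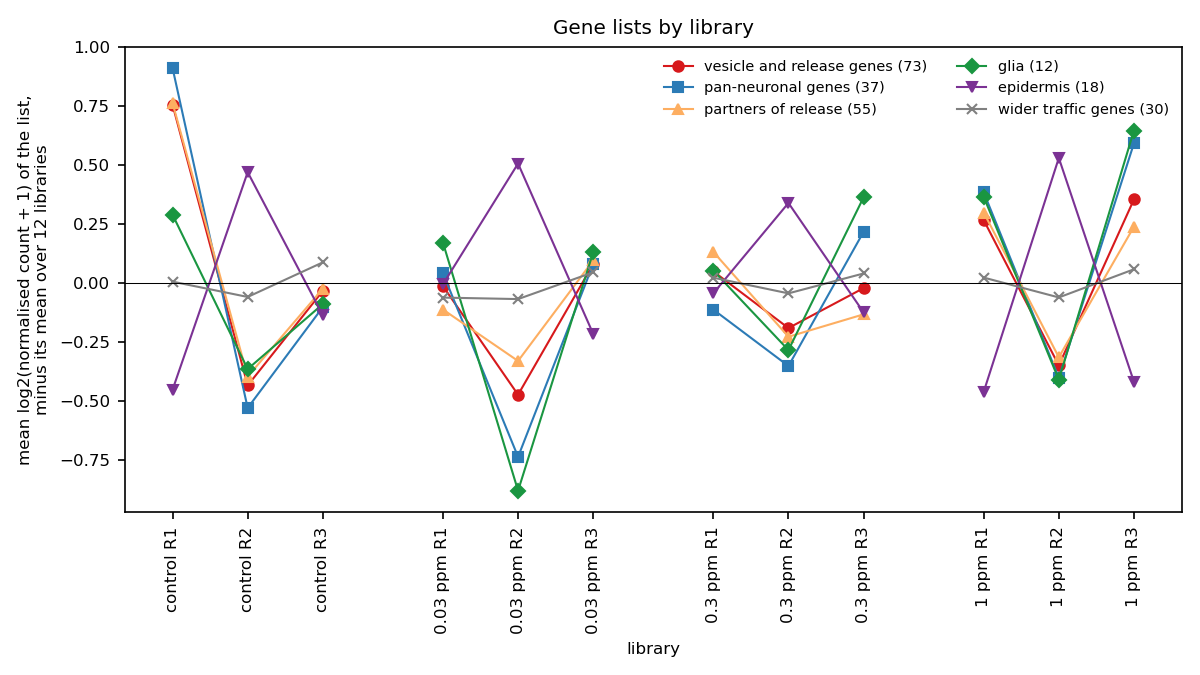
Mean log2(normalised count + 1) of 6 gene lists in each of the 12 libraries, each list centred on its own mean over the libraries, with the number of genes in brackets. The synaptic, pan-neuronal and partner lists peak in control replicate 1 and dip in replicate 2 of every group, the epidermis list is highest in replicate 2, and the wider traffic list stays near 0.

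The SNAREs carry out fusion itself. The plasma-membrane SNARE snap25a held 4727, 1981 and 3031 normalised counts in control larvae, 3179, 1382 and 3356 at 0.03 ppm, 2808, 2356 and 3947 at 0.3 ppm, and 4027, 2064 and 5331 at 1 ppm. The groups overlapped at each dose, and the fitted log2 fold change at 1 ppm was 0.21 with an SE of 0.42 (limma adjusted p = 1.00). For the vesicle SNARE vamp2, control libraries held 1146, 284 and 459 normalised counts, those at 0.03 ppm 454, 323 and 569, those at 0.3 ppm 377, 399 and 465, and those at 1 ppm 579, 335 and 651. The first control library exceeded every other by a wide margin. The related vesicle SNARE gene vamp1 averaged 884 ± 322 at 1 ppm and 781 ± 290 in the control (SD, n = 3 each). The second SNAP25 gene, snap25b, averaged 1275 ± 310 at 1 ppm and 1400 ± 538 in the control. The syntaxin gene stx1a held 7, 6 and 8 in the control, 5, 3 and 11 at 0.03 ppm, 5, 6 and 8 at 0.3 ppm, and 8, 14 and 10 at 1 ppm. These few counts are close to the value limit. The gene passed the filter mainly through libraries at 1 ppm. Its place among the SNAREs higher at 1 ppm is therefore not independent of the filter. Here and below, genes counted as higher or lower in a group are compared by mean log2(normalised count + 1), unless another scale is named. Means of the counts themselves can differ in direction. By this measure 0 SNAREs were higher and 6 lower at 0.03 ppm than in the control, by a median log2 of -0.30. Without control replicate 1 there were 4 higher and 2 lower, and with the libraries levelled on the pan-neuronal genes 3 and 3. At 1 ppm 3 were higher and 3 lower, and without control replicate 1 all 6 were higher, by a median of 0.50. That library was the highest for most synaptic members, so leaving it out tends to raise the fold changes. Splits by role were not made without control replicate 2. For all members that omission lowered the medians, to -0.40 at 0.03 ppm, -0.29 at 0.3 ppm and -0.21 at 1 ppm.

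**Figure D3:**
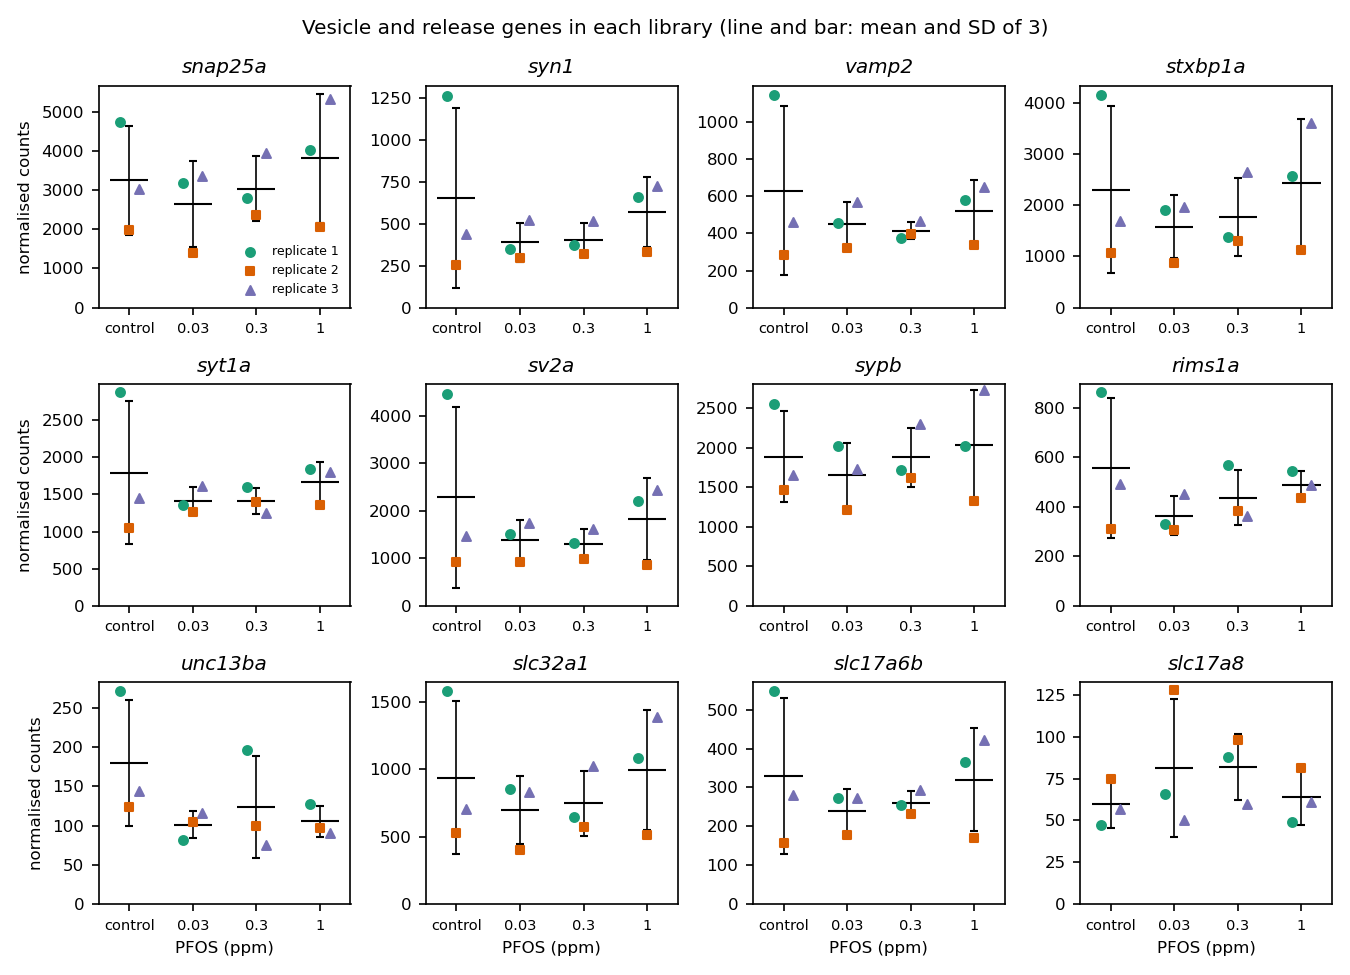
Normalised counts of 12 genes in each library by PFOS group, with replicate numbers as symbols, and the mean and SD of 3 libraries in black. Control replicate 1 is the highest point in 9 of the 12 panels, snap25a and sypb are highest in replicate 3 at 1 ppm, and slc17a8 is highest in replicate 2 of each group.

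SNARE regulators set when the complex may close. Munc18-1, the protein of stxbp1a and stxbp1b, holds syntaxin and is required for release in mice. In the control stxbp1a held 4157, 1071 and 1690 normalised counts, then 1903, 879 and 1972 at 0.03 ppm, 1381, 1294 and 2651 at 0.3 ppm, and 2569, 1118 and 3611 at 1 ppm. Replicate 2 was lowest in each group, and the log2 fold change at 1 ppm was 0.15 with an SE of 0.53. Its copy stxbp1b averaged 438 ± 98.5 at 1 ppm and 524 ± 325 in the control. Complexins bind the assembled SNAREs and both clamp and promote fusion. The complexin cplx2 averaged 845 ± 370 at 1 ppm and 830 ± 469 in the control, and cplx2l averaged 1159 ± 608 at 1 ppm and 922 ± 361 in the control. Tomosyns, among them stxbp5l, occupy SNAREs and hold release back. This gene averaged 221 ± 28.4 at 1 ppm and 270 ± 128 in the control. Of the 11 regulators, 3 were higher and 8 lower at 1 ppm than in the control, and at 0.3 ppm 0 were higher and 11 lower, the median log2 fold change being -0.20. Without control replicate 1 these splits turned to 8 higher and 3 lower at both doses, and with the libraries levelled on the pan-neuronal genes they were 2 and 9 at 1 ppm and 5 and 6 at 0.3 ppm.

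The complexin cplx3b, of a subfamily found at the ribbon synapses of the mouse retina, was one of few members with a slope over the doses at an unadjusted p under 0.05. It held 151, 93 and 80 normalised counts in control larvae, 103, 106 and 108 at 0.03 ppm, 71, 77 and 89 at 0.3 ppm, and 76, 59 and 95 at 1 ppm. The range at 1 ppm crossed that of the control, and 1 of 3 libraries at 0.3 ppm lay above the lowest control library. The slope was -0.18 per dose step on the log2 scale with an SE of 0.08 (unadjusted p = 0.0317, limma adjusted p = 0.876). The log2 fold change at 1 ppm was -0.46 (95% interval -1.01 to 0.08).

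Synaptotagmins 1, 2 and 9 are the fast calcium sensors of release in mice. In the control syt1a held 2878, 1043 and 1449 normalised counts, with 1354, 1267 and 1615 at 0.03 ppm, 1597, 1393 and 1248 at 0.3 ppm, and 1847, 1355 and 1801 at 1 ppm. Apart from control replicate 1 its libraries ran between 1043 and 1847, and the log2 fold change at 1 ppm was 0.02 (95% interval -0.61 to 0.64). The same library stood out for syt2a, which held 423, 70 and 118 in the control, 187, 78 and 165 at 0.03 ppm, 172, 106 and 104 at 0.3 ppm, and 234, 85 and 185 at 1 ppm. By contrast syt9b averaged 311 ± 46.7 at 1 ppm and 310 ± 75.2 in the control, and syt9a averaged 240 ± 100 at 1 ppm and 224 ± 65.0 in the control. By mean log2 value all 5 sensor genes were lower at 0.03 ppm than in the control and all 5 higher at 1 ppm. The median log2 fold changes were -0.16 and 0.02. For syt1a and syt2a the mean of the counts above was instead lower at 1 ppm than in the control. With the libraries levelled on the pan-neuronal genes 5 were higher at 0.03 ppm and 1 at 1 ppm. Without control replicate 1 all 5 were higher at both doses.

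The second synaptotagmin 1 gene, syt1b, ran differently at low counts. It held 14, 7 and 13 normalised counts in control larvae, 14, 4 and 19 at 0.03 ppm, 21, 19 and 24 at 0.3 ppm, and 23, 15 and 28 at 1 ppm. Every library at 0.3 and 1 ppm was above every control library. The log2 fold change was 0.91 with an SE of 0.49 at 1 ppm (unadjusted p = 0.0862, limma adjusted p = 1.00) and 0.90 with an SE of 0.49 at 0.3 ppm (unadjusted p = 0.0881). Its slope over the 4 groups was 0.37 per step with an SE of 0.15 (unadjusted p = 0.0286, limma adjusted p = 0.861). It was the only synaptic member higher with no overlap at 1 ppm. Over all members, 1 was higher and 2 lower without overlap at 1 ppm, beside 8.75% of all genes. At 0.3 ppm 2 were higher and 3 lower, beside 7.09%, and at 0.03 ppm 0 were higher and 3 lower, beside 7.40%.

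The other 18 synaptotagmins are a mixed class. Some act in slower release, in dense-core vesicles or in membrane repair, and several have no settled role in zebrafish. Among the 18, syt11a held 2415, 962 and 1372 normalised counts in control larvae, 1560, 782 and 1518 at 0.03 ppm, 1415, 1117 and 1759 at 0.3 ppm, and 1949, 927 and 2262 at 1 ppm. Here replicate 2 was again lowest in every group. Further down, syt4 averaged 492 ± 158 at 1 ppm and 406 ± 142 in the control, and syt5b averaged 705 ± 147 at 1 ppm and 795 ± 283 in the control. Of the 18, 9 were higher and 9 lower at 1 ppm, with log2 fold changes between -0.50 and 0.37. Leaving out control replicate 1 gave 14 higher and 4 lower, and with the libraries levelled on the pan-neuronal genes 7 were higher and 11 lower. The widest spread was that of syt7a, whose mouse counterpart is a slow calcium sensor, and which is named here after its values were seen. It held 97, 27 and 41 in the control, 27, 43 and 46 at 0.03 ppm, 103, 35 and 17 at 0.3 ppm, and 64, 17 and 34 at 1 ppm.

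Genes of the vesicle membrane had a median SD of 0.55 over the 12 libraries on the log2 scale, beside 0.53 for the SNAREs, 0.52 for the active zone and 0.40 for the Rab3 genes. The glycoprotein gene sv2a, whose human protein binds the drug levetiracetam, held 4465, 926 and 1468 normalised counts in control larvae, 1515, 931 and 1736 at 0.03 ppm, 1329, 980 and 1610 at 0.3 ppm, and 2207, 851 and 2440 at 1 ppm. Control replicate 1 was far above the rest, and the log2 fold change was -0.14 with an SE of 0.52 at 1 ppm and -0.51 with an SE of 0.52 at 0.3 ppm. Synapsins tether vesicles in a reserve pool. For syn1 the values were 1262, 255 and 438 in the control, 352, 294 and 519 at 0.03 ppm, 370, 321 and 518 at 0.3 ppm, and 658, 333 and 723 at 1 ppm. The synapsin 2 gene syn2a averaged 854 ± 420 at 1 ppm and 805 ± 429 in the control and was highest in replicate 3 at 1 ppm, while syn2b was highest in control replicate 1, averaging 274 ± 113 at 1 ppm and 320 ± 219 in the control. Synaptophysins are among the most abundant proteins of the vesicle and bind its SNARE. Of their genes, sypa averaged 1563 ± 742 at 1 ppm and 1443 ± 641 in the control, and sypb averaged 2031 ± 698 at 1 ppm and 1889 ± 580 in the control. A second SV2 gene, sv2ba, averaged 427 ± 149 at 1 ppm and 401 ± 227 in the control. Of the 11 vesicle-membrane genes, 8 were higher and 3 lower at 1 ppm, and 1 was higher and 10 lower at 0.03 ppm, and the median log2 fold change was 0.06 at 1 ppm and -0.24 at 0.03 ppm. Without control replicate 1 there were 10 higher and 1 lower at 1 ppm and 9 higher and 2 lower at 0.03 ppm, and with the libraries levelled on the pan-neuronal genes 2 and 9 at 1 ppm and 6 and 5 at 0.03 ppm.

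The active zone is where vesicles are docked and primed, by RIM proteins that bind Rab3 and calcium channels and by UNC13 proteins that open syntaxin. All 8 of its genes were lower on average at 0.03 ppm and at 0.3 ppm than in the control, with median log2 fold changes of -0.50 and -0.31, but once control replicate 1 was left out there were 2 higher and 6 lower at 0.03 ppm and 6 higher and 2 lower at 0.3 ppm. At 1 ppm 1 was higher and 7 lower, with a median of -0.08, and in the absence of control replicate 1 there were 7 higher and 1 lower. With the libraries levelled on the pan-neuronal genes, 0 were higher and 8 lower at 0.03 ppm, 1 and 7 at 0.3 ppm, and 0 and 8 at 1 ppm, and leaving out control replicate 1 as well gave 2 and 6, 1 and 7, and 2 and 6. The comparisons of the 3 doses share the control libraries. The scaffold gene rims2b held 426, 241 and 250 normalised counts in control larvae, 219, 192 and 213 at 0.03 ppm, 287, 241 and 254 at 0.3 ppm, and 269, 296 and 235 at 1 ppm. All 3 libraries at 0.03 ppm were below all 3 control libraries, and the log2 fold change was -0.50 with an SE of 0.21 (unadjusted p = 0.0305, limma adjusted p = 0.998). Without control replicate 1 the limma estimate was -0.24 (unadjusted p = 0.164). The priming factor gene unc13ba held 272, 124 and 144 in the control, 82, 105 and 116 at 0.03 ppm, 197, 99 and 75 at 0.3 ppm, and 128, 97 and 91 at 1 ppm. Its libraries at 0.03 ppm did not overlap the control, and its log2 fold change in limma was -0.76 with an SE of 0.36 at 0.03 ppm (unadjusted p = 0.0547) and -0.70 with an SE of 0.36 at 1 ppm (unadjusted p = 0.0734). The largest library of rims1a was also control replicate 1, with 865, 312 and 490 in the control, 332, 305 and 453 at 0.03 ppm, 567, 381 and 364 at 0.3 ppm, and 543, 434 and 487 at 1 ppm. Its relative rims2a averaged 258 ± 67.0 at 1 ppm and 285 ± 120 in the control.

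Rab3 proteins are small GTPases carried on the vesicle. In the control rab3aa held 565, 310 and 322 normalised counts, with 460, 255 and 342 at 0.03 ppm, 413, 303 and 427 at 0.3 ppm, and 470, 289 and 460 at 1 ppm. The groups overlapped throughout. Likewise rab3c averaged 237 ± 83.0 at 1 ppm and 227 ± 57.8 in the control. The gene rab3da departed from the pattern, since it held its lowest value of 71 in control replicate 1 and averaged 92.0 ± 3.61 at 1 ppm and 102 ± 27.0 in the control. Of the 6 Rab3 genes 5 were higher and 1 lower at 1 ppm, with a median log2 fold change of 0.07, and 2 were higher and 4 lower with the libraries levelled on the pan-neuronal genes.

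The vesicular transporters tell which transmitter a terminal uses. The carrier of GABA and glycine, slc32a1, held 1581, 523 and 705 normalised counts in control larvae, 855, 404 and 831 at 0.03 ppm, 643, 573 and 1022 at 0.3 ppm, and 1081, 510 and 1389 at 1 ppm. Its log2 fold change at 1 ppm was 0.13 (95% interval -0.85 to 1.11). Glutamate is carried by the slc17a6 and slc17a7 products. The gene slc17a6b held 549, 158 and 280 in the control, 272, 177 and 273 at 0.03 ppm, 256, 231 and 293 at 0.3 ppm, and 365, 170 and 423 at 1 ppm. Both slc32a1 and slc17a6b were highest in control replicate 1 and lowest in replicate 2 of each group. Its copy slc17a6a averaged 275 ± 140 at 1 ppm and 315 ± 278 in the control, and slc17a7a averaged 172 ± 8.72 at 1 ppm and 217 ± 115 in the control. The acetylcholine carrier gene slc18a3a averaged 348 ± 113 at 1 ppm and 276 ± 72.4 in the control, a log2 fold change of 0.31 (95% interval -0.34 to 0.96). The monoamine carrier gene slc18a2 averaged 25.7 ± 6.51 at 1 ppm and 27.3 ± 7.57 in the control. Of the 8 transporter genes 6 were higher and 2 lower at 1 ppm, with a median log2 fold change of 0.02, and 2 were higher and 6 lower with the libraries levelled on the pan-neuronal genes, while leaving out control replicate 1 gave a median of 0.50.

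The third glutamate carrier gene, slc17a8, which sensory hair cells of zebrafish use, had the opposite order. It held 47, 75 and 57 normalised counts in control larvae, 66, 128 and 50 at 0.03 ppm, 88, 98 and 60 at 0.3 ppm, and 49, 81 and 61 at 1 ppm. Replicate 2 was its highest library in all 4 groups, and control replicate 1 its lowest of 12. Among the 73 synaptic members only syt15, named here after its values were seen, was also highest in replicate 2 in at least 3 groups, against 24.0% of all genes. The other 71 synaptic members held that place in at most 2 groups.

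**Figure D4:**
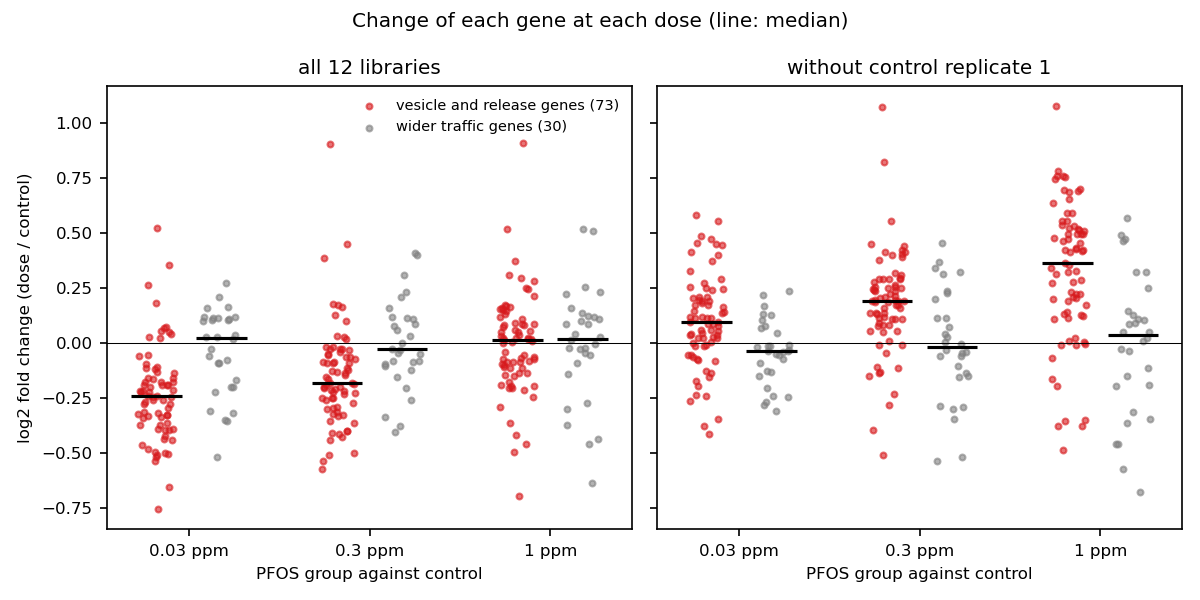
Each point is the log2 fold change of a gene at a dose against the control, in red for the 73 synaptic members and grey for the 30 wider traffic genes, with medians as black lines, for all 12 libraries on the left and without control replicate 1 on the right. The red medians are -0.24, -0.18 and 0.01 at 0.03, 0.3 and 1 ppm on the left and lie above 0 at each dose on the right.

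At 0.03 and 0.3 ppm the direction of the medians depended on control replicate 1. At 1 ppm the median lay near 0, and its sign depended on other libraries. With all libraries, 11 synaptic members were higher and 62 lower at 0.03 ppm, with a median log2 fold change of -0.24. At 0.3 ppm 11 were higher and 62 lower, with a median of -0.18, and at 1 ppm 40 were higher and 33 lower, with a median of 0.01. Over all 103 members 27 were higher and 76 lower at 0.03 ppm, when 53.3% of all genes were lower. At 0.3 ppm 25 were higher and 78 lower, when 51.2% of all genes were lower, and at 1 ppm 56 were higher and 47 lower, when 51.7% were lower. Their medians were -0.20, -0.11 and 0.01, beside -0.02, -0.01 and -0.01 for all genes tested. Without control replicate 1 the medians became 0.05, 0.16 and 0.25, with 62 members higher and 41 lower at 0.03 ppm, 75 higher and 28 lower at 0.3 ppm, and 79 higher and 24 lower at 1 ppm. Without control replicate 2 they were -0.40, -0.29 and -0.21. The 1 ppm median was also below 0 without control replicate 3 (-0.03), 1 ppm replicate 1 (-0.07) or 1 ppm replicate 3 (-0.13), and it was 0.16 without 1 ppm replicate 2. At 0.03 ppm it was -0.01 without replicate 2 of that group, and at 0.3 ppm it was -0.05 without replicate 2 of that group. No member passed the adjusted test in any of these fits. With the libraries levelled on the pan-neuronal genes the member medians were 0.10 at 0.03 ppm, 0.06 at 0.3 ppm and -0.08 at 1 ppm, each below or, at 1 ppm, just above the shifted median of all genes. With library totals made equal they were -0.14, -0.13 and 0.03. By means of the normalised counts rather than of log2 values, the control had the highest of the 4 group means in 43 of the 73 synaptic members. Without its first library this held in 4, and the 1 ppm group was highest in 51. These counts are on another scale than the log2 splits above and need not match them.

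The replicate numbers give another view, since libraries of the same number tended to deviate together. Within replicate 1 the median synaptic member was lower than in the control at each dose. The log2 difference was -0.79 at 0.03 ppm, -0.75 at 0.3 ppm and -0.57 at 1 ppm. Each of these subtracts the same library, control replicate 1, which stood above all others, so the doses are not independent of each other here. Within replicate 2 the differences were -0.08, 0.21 and 0.06, and within replicate 3 they were 0.15, 0.07 and 0.50. Of the 73 members 11 were higher and 62 lower at 1 ppm in replicate 1, and 57 were higher and 16 lower in replicate 3. Of the 37 pan-neuronal genes at 1 ppm, 3 were higher and 34 lower in replicate 1, 28 higher and 9 lower in replicate 2, and 36 higher and 1 lower in replicate 3, with median log2 differences of -0.57, 0.09 and 0.69. Of the 12 glia genes, 8 were higher and 4 lower in replicate 1, 4 higher and 8 lower in replicate 2, and 12 higher and 0 lower in replicate 3, with medians of 0.11, -0.08 and 0.73. Their part in the difference was not tested.

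**Figure D5:**
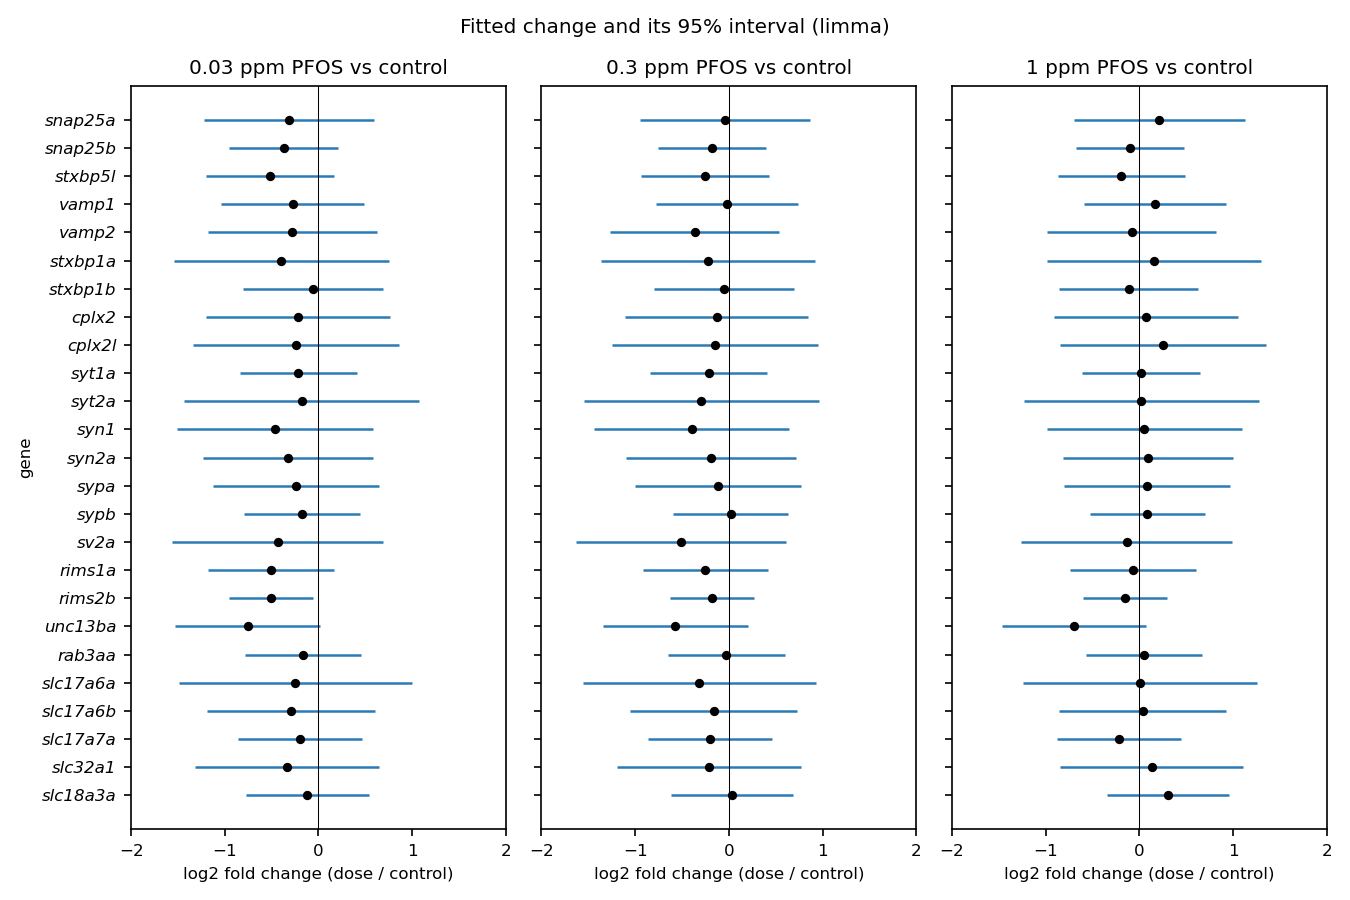
Fitted log2 fold change (points) and 95% interval (bars) from limma for 25 synaptic members at each dose against the control. Every interval crosses 0 apart from that of rims2b at 0.03 ppm, and most extend more than 0.5 to either side of the estimate.

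In comparisons between doses the control libraries enter only the shared estimate of the spread. For 0.3 ppm set against 0.03 ppm, 0 members passed the adjusted test, against 0.00448% of all genes, and 0 had an unadjusted p under 0.05, against 1.43%. For 1 ppm set against 0.3 ppm, limma called 0 members and 0% of all genes, and 0 members had an unadjusted p under 0.05, against 1.08%. For 1 ppm set against 0.03 ppm it called 0 members, against 0.00448%, and 1 had an unadjusted p under 0.05, against 2.95%. That gene was stx12l, a syntaxin gene among the wider traffic genes that is named here after its values were seen, with 393, 331 and 419 normalised counts at 1 ppm, against 291, 209 and 288 at 0.03 ppm. The synaptic members were more often higher at 1 ppm than at the lower doses. This held for 57 of 73 against 0.03 ppm with a median log2 fold change of 0.27, and 56 of 73 against 0.3 ppm with a median of 0.18. Without replicate 2 of the 0.03 ppm group, the lowest library, the median over all 103 members at 1 ppm against 0.03 ppm was 0.05, where it was 0.21 with it. Without replicate 3 of the 1 ppm group, the median of the 103 at 1 ppm against 0.3 ppm was 0.00374. Levelling the libraries on the pan-neuronal list turned the medians of the 103 members to -0.18 for 1 ppm against 0.03 ppm and -0.18 for 1 ppm against 0.3 ppm, while those of all genes became -0.38 and -0.27. All 6 SNAREs and all 8 active-zone genes were higher at 1 ppm than at 0.03 ppm, with medians of 0.45 and 0.33, and 0 of them passed the test. Among these SNAREs, stx1a passed the filter mainly through its libraries at 1 ppm. After the same levelling 4 of 6 SNAREs and 3 of 8 active-zone genes were higher.

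The smallest p-value of any member at 1 ppm belonged to a wider traffic gene. The syntaxin 11 gene stx11b.1, whose human counterpart serves granule release in immune cells, held 1336, 1940 and 1470 normalised counts in control larvae, 1462, 1154 and 1493 at 0.03 ppm, 1285, 1243 and 1028 at 0.3 ppm, and 1131, 1523 and 849 at 1 ppm. Its log2 fold change at 1 ppm was -0.46 with an SE of 0.21 (unadjusted p = 0.0506), and its slope was -0.16 per step with an SE of 0.06 (unadjusted p = 0.0232, limma adjusted p = 0.833). All libraries at 0.3 ppm were below all control libraries, but those at 1 ppm overlapped them. The gene rab3gap1 encodes part of an enzyme that switches Rab3 off. It held 475, 515 and 514 in the control, 449, 525 and 376 at 0.03 ppm, 392, 412 and 452 at 0.3 ppm, and 384, 445 and 415 at 1 ppm. All 6 libraries at 0.3 and 1 ppm were below all 3 control libraries, with a limma log2 fold change of -0.27 at 1 ppm (95% interval -0.59 to 0.04, unadjusted p = 0.0820). The small GTPase gene rab34b averaged 117 ± 6.43 at 1 ppm and 85.3 ± 32.9 in the control, and rab32b averaged 31.3 ± 2.52 at 0.3 ppm and 23.3 ± 1.53 in the control. Among the others, the endosomal syntaxin gene stx12 averaged 950 ± 137 at 1 ppm and 847 ± 83.2 in the control, stx10 averaged 792 ± 55.4 at 1 ppm and 739 ± 49.7 in the control, and stxbp2, whose human protein Munc18-2 serves granule release in immune cells, averaged 1007 ± 143 at 1 ppm and 1124 ± 260 in the control. Of the 30, 16 were higher and 14 lower at 1 ppm, with a median log2 fold change of 0.02.

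Members whose names differ only in a closing a or b, many of them copies from the fish genome duplication, mostly varied together between libraries. Most synaptic members shared the pattern of libraries described above, and pairs of unrelated members were not compared. Whether copies varied together more than other members did was therefore not tested. Among 21 such pairs, the log2 difference within the pair varied less over the 12 libraries than either gene did in 14 pairs and more than both in 3. For sypa and sypb the SD of the difference was 0.19, beside 0.53 and 0.36 for the genes themselves. For slc17a6a and slc17a6b it was 0.27, beside 0.75 and 0.53. Reads of close copies may be shared between them, and how they were assigned is not given in the sources used here. The classes did not keep one ratio either. The active-zone mean minus the SNARE mean, on the log2 scale, ran between -2.87 in replicate 3 of the 0.3 ppm group and -1.83 in replicate 1 of the same group. There snap25a held 3947 in replicate 3 and 2808 in replicate 1, while rims1a held 364 in replicate 3 and 567 in replicate 1. The first of these genes was thus higher and the second lower in replicate 3 than in replicate 1. The cause was not tested.

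Genes that work with the members outside the name rule also peaked in control replicate 1. Of 55 partners of release tested, which recycle vesicles, build the active zone or admit calcium, 14 were higher and 41 lower at 0.03 ppm, 9 higher and 46 lower at 0.3 ppm, and 23 higher and 32 lower at 1 ppm. Their median log2 fold changes were -0.26, -0.18 and -0.01, limma called 0 of them at any dose, and control replicate 1 was the highest of 12 libraries in 38. With the libraries levelled on the pan-neuronal genes 32 partners were higher and 23 lower at 0.03 ppm, and 11 higher and 44 lower at 1 ppm. Without control replicate 1 the partners were 41 higher and 14 lower at 0.03 ppm and at 0.3 ppm, and 46 higher and 9 lower at 1 ppm, with medians of 0.10, 0.15 and 0.33. Of 24 genes that make, take up or break down transmitters, 15 were higher and 9 lower at 1 ppm with a median of 0.07, which became 19 and 5 with a median of 0.51 without control replicate 1, and 0 were called at any dose. Among the 37 pan-neuronal genes 1 was higher and 36 lower at 0.03 ppm, and 27 were higher and 10 lower at 1 ppm, with medians of -0.29 and 0.07 and 0 called. Leaving out control replicate 1 turned these to 27 higher and 10 lower at 0.03 ppm and 37 higher and 0 lower at 1 ppm, with medians of 0.15 and 0.47. That library was the highest of the control in 36 of the 37, so its omission raises their fold changes. Control replicate 2 was the lowest in all 37. Neither these lists nor those of other cell types were split without control replicate 2. With all 12 libraries, 0 of 37 pan-neuronal genes had an unadjusted p under 0.05 at each dose. There was 1 of 55 partners at 0.3 ppm, beside 2.82% of all genes. For the transmitter list there were 3 of 24 genes at 0.03 ppm, beside 3.49% of all genes. Only this last count was above the share of all genes, and 0 of these genes passed the adjusted test.

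Markers of other cell types were measured beside the members. All 12 glia genes were higher at 1 ppm than in the control, with a median log2 fold change of 0.22, and 11 of 12 were with the libraries levelled on the pan-neuronal genes, but within replicate 2 only 4 of 12 were higher and the largest difference lay in replicate 3. Of the 21 photoreceptor genes 9 were higher and 12 lower at 1 ppm with a median of -0.03, or 18 and 3 with a median of 0.26 without control replicate 1, and of 18 endocrine rows 12 were higher and 6 lower with a median of 0.07. The epidermis list had 7 higher and 11 lower at 1 ppm with a median of -0.13, the skeletal-muscle list 10 higher and 11 lower with a median of -0.08, and the lens list 1 higher and 16 lower with a median of -0.18. The lens list did not run one way, with 0 of 17 higher in replicate 1 and in replicate 2, by medians of -0.46 and -0.64, and 14 higher and 3 lower in replicate 3, by 0.44. In these 6 lists limma called 0 genes at 1 ppm, beside 0.139% of all genes. At an unadjusted p under 0.05 there were 1 endocrine, 1 epidermis and 1 skeletal-muscle gene, beside 4.74% of all genes. Their part in the values of the members was not tested.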

How the data were processed

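Stranded libraries of polyadenylated RNA from whole larvae were read per gene in 12 samples. Values were deposited by the authors under the header of normalised counts, as whole numbers that are not scaled to a fixed total, and they were treated as a score rather than as raw counts. Tools listed in the submitters' processing notes are DESeq2 1.10.1, RSEM 1.2.28, STAR 2.5.1b and CASAVA, with GRCz10 as the genome build, and their roles are not stated. The strand setting and size factors are not given in the sources used here. Counting intervals and detection limits need raw counts and are not given. In the table of the whole series, 12 per-sample columns matched no label and were not used.

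Genes were tested in limma 3.58.1 (R 4.3.3) on log2(value + 1), as two-sided tests with a mean-variance trend. All 12 libraries entered 1 fit, after a filter of 10 in at least 3 libraries. P-values were adjusted by Benjamini-Hochberg over 22320 genes and called under 0.05. The design had allowed for a count test should the values be raw, and none was run because they are not. A fold change on the log2(value + 1) scale understates that of genes with few counts. The code was tested on simulated data. Tables and plots used Python 3.11.15, pandas 2.3.3, NumPy 2.4.6 and matplotlib 3.10.9.

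The members and gene lists were chosen with earlier results of these data known. The text names any called member, the 3 members of highest mean in each role, the 5 of smallest p in each comparison of a dose with the control, in the joint test and in the trend, and a panel of 30 names of which 29 are members. That gave 48 genes, 1 of which is not reported here apart from its place in counts and medians, and genes named beyond these are marked as such. Of 43 pan-neuronal names 37 were found and tested, and of 69 release partners 56 were found and 55 tested. In the endocrine list 17 names were found, 1 of them on a pair of rows, so 18 rows were tested.

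Replicate numbers are shared by the groups. Deviations from the group means correlated between libraries of the same number at 0.119 to 0.478 for 1 ppm and control, 0.145 to 0.286 for 0.3 ppm and control, and 0.0776 to 0.291 for 0.03 ppm and control. Between libraries of different numbers the highest correlations were 0.204 for 1 ppm, -0.0106 for 0.3 ppm and 0.226 for 0.03 ppm with the control, so at 1 ppm and 0.03 ppm some exceeded the lowest of the same number. Every pair passed 0.1 in the comparisons of 1 ppm and 0.3 ppm with the control. The pairing comes from the values, because no label says what a number marks.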

Additional observations from a re-analysis of the deposited data

How the results depend on the processing

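Across 28 other settings limma called 0 of the members in every test. The settings that added upper-case names or left out the wider traffic genes reuse the reported fit, so the latter could only give 0. At each dose against the control, the 48 named genes kept their side of the threshold in every setting that tested them. The other comparisons were not followed for single genes. Leaving out 1 library moved the median log2 fold change of the members between -0.206 and 0.251 at 1 ppm, -0.291 and 0.157 at 0.3 ppm, and -0.400 and 0.0462 at 0.03 ppm against the control. The same ranges were 0.00374 to 0.268 for 1 ppm against 0.3 ppm, 0.0456 to 0.396 for 1 ppm against 0.03 ppm, and -0.0744 to 0.137 for 0.3 ppm against 0.03 ppm, and the count of called members was 0 to 0 throughout. Levelling on the pan-neuronal list gave medians of -0.177 for 1 ppm against 0.3 ppm and -0.184 for 1 ppm against 0.03 ppm, with all genes at -0.272 and -0.382. With the replicate block 4 members had an unadjusted p under 0.05 at 1 ppm, beside 8.64% of all genes, 1 at 0.3 ppm beside 5.07%, 3 at 0.03 ppm beside 6.86%, 8 in the trend beside 9.60%, and 9 at 1 ppm against 0.03 ppm beside 7.15%. The block changed no call of a member. Library weights gave 20 members at an unadjusted p under 0.05 at 1 ppm beside 21.6% of all genes, and 768 called genes in all, where the unweighted fit had 31. A block fitted without control replicate 1, a setting chosen after seeing the data, gave 29 of 103 members at an unadjusted p under 0.05 in the trend, beside 13.1% of all genes, 23 at 1 ppm against 0.03 ppm beside 9.74%, and 15 at 1 ppm against the control beside 10.1%. Leaving out control replicate 2 gave 11 at 0.03 ppm beside 4.80%, and leaving out 1 ppm replicate 2 gave 11 at 1 ppm against 0.03 ppm beside 6.13%. The cause of these shifts was not tested. Fits on only the groups compared were not made for the joint test and the trend, which need all groups, and called 3 genes in all at 1 ppm. With 3 libraries a group and no raw counts, the depth behind each value is unknown.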
